A study of Mus musculus with 24 samples.

Results

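The genes described here encode the axoneme of motile cilia and flagella: the dynein arms, their assembly factors, and the spokes, links, central apparatus and doublet walls that the arms act on. They were chosen by name as the protein-coding mouse genes whose symbol is Dnah, Dnaaf, Dnai1, Dnai2, Cfap, Rsph, Tekt, Drc or Spag followed by a number, together with Hydin, Dynlrb2, Ccdc39 and Ccdc40; the rule uses no measured value, though it was set with earlier results of these data known. Of 35855 genes with at least 1 transcript in the deposited files, 90 met the rule. Of these, 4 (Cfap97d1, Spag11a, Spag11b and Dnaaf6) had under 10 estimated counts summed over the 24 libraries and were left out, which leaves 86 genes.

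A motile cilium is built on an axoneme, a ring of doublet microtubules around a central pair. Outer and inner dynein arms on one doublet walk along the next, and nexin links, radial spokes and the central apparatus turn that sliding into a regulated beat. In the trachea such cilia are carried by multiciliated cells, which arise during differentiation from basal and secretory cells and switch on these genes under regulators such as Foxj1 and the RFX factors. Basal cells, the stem cells of this epithelium, carry at most a primary cilium, which lacks dynein arms.

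The libraries came from airway epithelial cells of the trachea of naive female wild-type C57BL/6 mice, with no transgene or treatment named for any group. Pools of 1000 sorted cells were lysed and sequenced with a Smart-seq2 protocol for cell populations, as 2 x 38 bp reads. The 3 sorted subsets, labelled BCAM HI, BCAM LO and DIFFERENTIATED EPCS (BCAM high, BCAM low and differentiated here), had 8 libraries each. BCAM is a laminin receptor at the surface of basal cells. Replicates 1 to 5 of each subset belong to batch 1 and replicates 6 to 8 to batch 2; the labels do not say what the batch number stands for. The labels do not say that replicates came from separate animals, so the p-values measure the spread between these libraries, which may be technical.

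Library totals ranged from 1824619 to 4440072 estimated counts. Libraries correlated at 0.658 to 0.950 on the log2(CPM + 1) scale, where CPM is the count relative to the TMM-scaled library total, and no 2 libraries were near-identical. The basal marker Krt5 lay between 701 and 2135.2 CPM in the BCAM libraries and at 2.78 CPM or below in the differentiated libraries. The differentiated libraries differed by batch. Summed over 12 secretory markers, they held 354686 to 440021 TPM (the deposited length-normalised abundance) in batch 1, but 28228, 25683 and 214610 TPM in differentiated 6, 7 and 8. Summed over 8 thyroid markers (among them Tg, thyroglobulin), they held 3387.1 to 6023.7 TPM in batch 1 and 14971, 28329 and 14997 TPM in the same order in batch 2, against at most 419 TPM in any BCAM library. Summed over 4 parathyroid markers, which went the other way, they held 244 to 20718 TPM in batch 1 and 7.7 to 295 TPM in batch 2. Summed over 7 immune markers, they held 9265.3 to 13121 TPM in batch 1 and 2656.2, 1093.5 and 11196 TPM in batch 2. Only 2 of these 7 passed the low-count filter used for testing (below). Between the batches of the differentiated cells 0 of the 2 were called lower in batch 2 and 1 higher. The part of other cells in the differentiated levels below was not tested. Counts of called genes over the 24 libraries are given with single libraries left out. Fits of batch 2 alone, medians, percentages of a differentiated mean, correlations and most values of single genes are not.

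Promoters from 250 bases before to 50 bases after the transcription start were matched for 73 of the 86 genes (81 promoters), from RefSeq on GRCm38.p6. Genes of motile cilia are known targets of RFX factors, which bind X-box motifs made of GTTGCC-like arms, so 2 such words were marked. The 4 promoters shown first were picked because they hold both words and belong to genes called higher in batch 2 of BCAM low (below), so they are not typical: of 40 such genes with a promoter, 6 hold both. Spag7, with neither word and called in no comparison over the 24 libraries, is shown beside them. All are written 5′ to 3′ on the gene's strand, with matches to GTTGCC or GTTGCTANG on either strand in capitals (the reverse strand shows their reverse complements; matches can overlap). Dynlrb2 is at chr8:116504765-116505064 (+), Dnai2 at chr11:114727169-114727468 (+), Dnah10 at chr5:124724835-124725134 (+), Hydin at chr8:110266727-110267026 (+) and Spag7 at chr11:70669367-70669666 (-).
Dynlrb2: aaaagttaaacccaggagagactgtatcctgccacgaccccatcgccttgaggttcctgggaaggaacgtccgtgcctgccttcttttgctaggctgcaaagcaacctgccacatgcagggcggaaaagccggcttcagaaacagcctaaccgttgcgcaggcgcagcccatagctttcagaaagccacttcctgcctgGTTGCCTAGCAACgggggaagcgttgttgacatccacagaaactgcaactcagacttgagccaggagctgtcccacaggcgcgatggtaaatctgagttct
Dnai2: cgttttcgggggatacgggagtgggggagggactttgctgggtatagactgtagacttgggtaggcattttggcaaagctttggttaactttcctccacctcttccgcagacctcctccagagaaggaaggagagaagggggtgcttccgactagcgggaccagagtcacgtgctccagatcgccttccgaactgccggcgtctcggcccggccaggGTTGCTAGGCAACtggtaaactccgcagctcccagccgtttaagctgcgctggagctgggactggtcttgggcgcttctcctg
Dnah10: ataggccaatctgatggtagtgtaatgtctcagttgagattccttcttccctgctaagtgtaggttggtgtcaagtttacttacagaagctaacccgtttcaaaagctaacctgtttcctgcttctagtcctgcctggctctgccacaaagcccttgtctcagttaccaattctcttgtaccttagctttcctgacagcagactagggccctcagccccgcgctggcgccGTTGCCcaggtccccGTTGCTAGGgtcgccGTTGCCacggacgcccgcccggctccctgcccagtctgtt
Hydin: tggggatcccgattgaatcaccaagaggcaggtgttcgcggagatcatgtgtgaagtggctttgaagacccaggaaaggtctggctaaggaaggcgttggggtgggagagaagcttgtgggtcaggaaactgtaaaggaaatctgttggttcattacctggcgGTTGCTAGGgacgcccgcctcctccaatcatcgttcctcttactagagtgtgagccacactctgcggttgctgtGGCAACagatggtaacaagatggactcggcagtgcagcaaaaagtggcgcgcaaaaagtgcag
Spag7: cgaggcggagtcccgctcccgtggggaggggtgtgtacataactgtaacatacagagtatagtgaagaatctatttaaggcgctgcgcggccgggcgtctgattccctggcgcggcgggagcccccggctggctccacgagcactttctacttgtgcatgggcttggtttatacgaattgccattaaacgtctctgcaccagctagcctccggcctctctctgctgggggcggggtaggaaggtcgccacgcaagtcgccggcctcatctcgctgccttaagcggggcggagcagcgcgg

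The marked words were common in the set. GTTGCC was present in 33 of the 81 promoters (40.7%), against 4111 of 32851 RefSeq mouse promoters of the same length (12.5%), and GTTGCTANG in 23 (28.4%) against 626 (1.91%). The forkhead word TGTTTAC was in 4 (4.94%) against 1199 (3.65%). Among the 40 genes with a promoter that were called higher in batch 2 of BCAM low (below), 14 of 44 promoters held GTTGCC (31.8%) and 14 held GTTGCTANG (31.8%). In the promoters of the other tested genes the counts were 10 of 15 (66.7%) and 2 of 15 (13.3%). These are letter matches in a fixed window, given as a description.

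Over both batches together most axoneme genes were lowest in BCAM high, and within BCAM low the level differed by batch. In batch 1 most were low in both BCAM subsets and present in the differentiated cells. The BCAM subsets differed little there, with a median log2 fold change of -0.16 over 56 tested genes. Summed TPM of the 86 genes in batch 1 was 555 to 759 in BCAM high and 446 to 669 in BCAM low, which overlap. Differentiated libraries of that batch, at 633 to 857 TPM, overlapped both ranges. Much of this sum came from a few genes. Over all BCAM high libraries its mean was 632 TPM, with Cfap20 at 150, Spag7 at 99.8 and Rsph3b at 90.6. The sum therefore cannot show whether most of the genes were low or alike in batch 1. In batch 2 the genes stayed low in BCAM high but reached, in BCAM low, a level close to that of the differentiated cells. Levels were set against the differentiated mean of the same batch, over the 63 genes that passed the filter on low counts. The median gene in BCAM low stood at 21.2% in batch 1 and at 68% in batch 2. In BCAM high the corresponding medians were 15.4% and 4.08%. The batch 2 differentiated mean includes differentiated 8, with 2206.4 summed TPM of the 86 genes against 904 and 870 in differentiated 6 and 7. BCAM low 6 to 8 held 1083.5 to 1187.5 TPM. Against the batch 1 differentiated mean, batch 2 of BCAM low stood at a median of 163%, with 54 of the 63 genes above it. In such pools of cells, fewer cells of a type and less RNA per cell cannot be told apart.

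**Figure D1:**
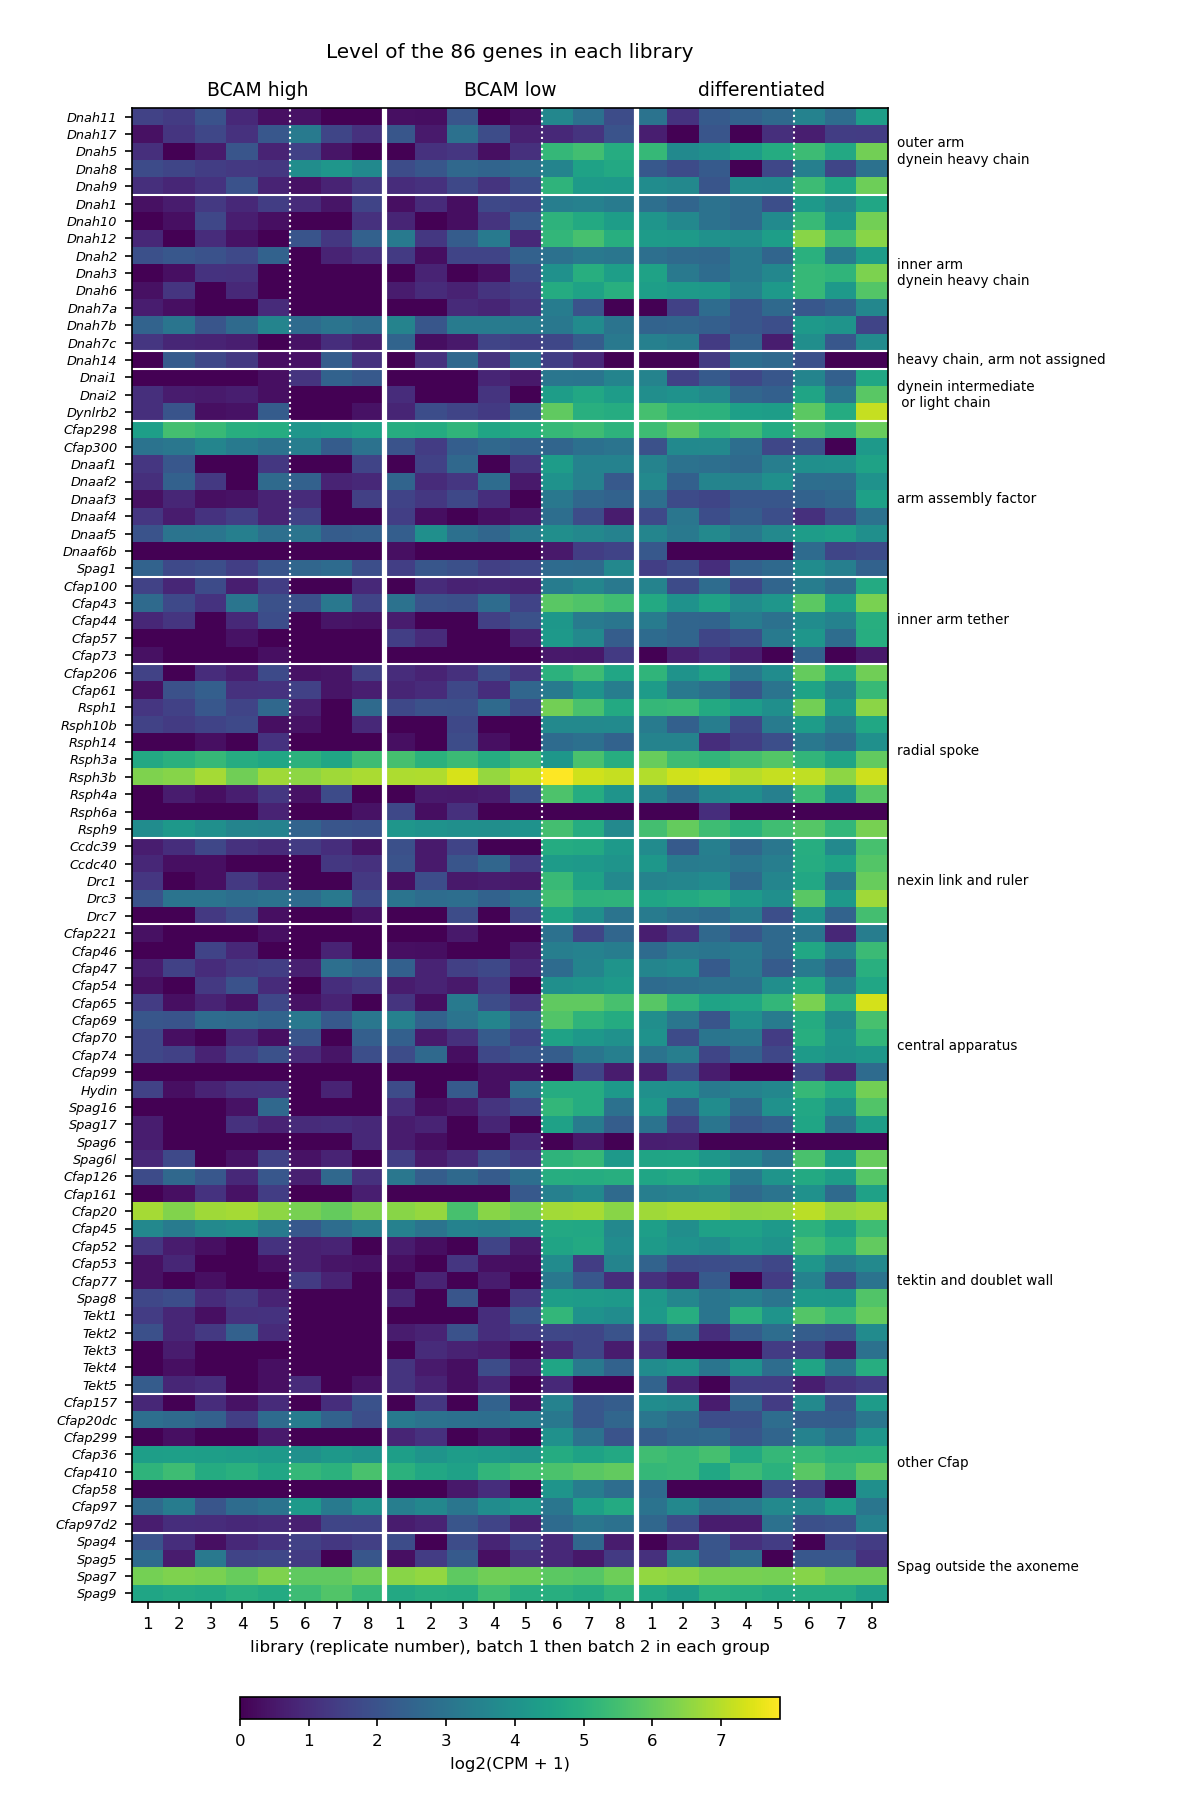
Level of each of the 86 genes (rows, grouped by role) in each of the 24 libraries (columns, by replicate number), as log2(CPM + 1). Solid white lines separate the 3 groups and dotted lines batch 1 (replicates 1 to 5) from batch 2 (6 to 8). Most rows are dark in all BCAM high libraries and in BCAM low 1 to 5, and light in BCAM low 6 to 8 and in the differentiated libraries; Cfap20, Spag7 and Rsph3b are light throughout.

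The 63 tested genes were those of the 86 that reached 3.72 CPM in enough libraries, and 31 of them reached it in no BCAM high library. A gene that passed only through the libraries where it is high had to differ. The counts, medians and correlations given for tested genes therefore describe those genes and are not evidence about the whole set. The 23 genes not tested were Cfap221, Cfap299, Cfap53, Cfap58, Cfap73, Cfap77, Cfap97d2, Cfap99, Dnaaf3, Dnaaf4, Dnaaf6b, Dnah7a, Dnah7c, Dnah11, Dnah14, Dnah17, Rsph6a, Spag4, Spag5, Spag6, Tekt2, Tekt3 and Tekt5. Some of these, such as Tekt3, Tekt5, Rsph6a and Dnah17, are known mainly from sperm flagella.

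Against the differentiated cells, BCAM high libraries were lower in 53 of the 63 tested genes and higher in none (edgeR quasi-likelihood test, adjusted p under 0.05). Of all 12211 genes tested, 41.3% were called in this comparison (22% as lower). The median log2 fold change of the 63 genes was -3.28, against 0.02 over all genes. All 8 BCAM high libraries were below all 8 differentiated libraries in 37 of the 63 genes, against 7.3% of all genes. The calls numbered 38 of 56 tested genes in batch 1 alone (33.7% of all genes called) and 60 lower and 1 higher, Spag9, of 73 in batch 2 alone (29.6%).

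Against BCAM low, BCAM high was lower in 19 of the 63 genes and higher in none, where 7.02% of all genes were called (4.59% as lower and 2.43% as higher) and the median log2 fold change was -1.70. This count came mostly from batch 2: 3 of 56 genes were called in batch 1 alone (Dnah12, Rsph3b and Ccdc40, all lower; 5.69% of all genes were called, 3.64% as lower and 2.05% as higher) and 46 of 73 in batch 2 alone (4.38%). No gene had all 8 BCAM high libraries below all 8 BCAM low libraries, against 0.999% of all genes, but within batch 2 this held for 52 of the 63 genes (12.4% of all genes) and within batch 1 for 1 (4.18%). The pooled count fell to 12 without BCAM high 6 and to 11 without BCAM high 8.

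BCAM low against differentiated gave 35 of the 63 genes lower and 1, Dnah8, higher, where 33.5% of all genes were called (17.1% as lower) and the median log2 fold change was -1.52. Here batch 1 carried the calls: 37 of 56 genes were lower in batch 1 alone (33.1%), against 2 lower (Dnah3 and Tekt1) and 1 higher (Dnah8) of 73 in batch 2 alone (17.9% of all genes were called, 9.05% as lower and 8.88% as higher). No gene had all 8 BCAM low libraries below all 8 differentiated libraries, against 3.83% of all genes. The pooled count fell from 36 to 21 without differentiated 8, and to 4 with no term for batch. Each pair of the 3 comparisons shares the libraries of 1 group, so their calls are not independent of each other.

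On the TPM scale the median of all genes itself shifted, by 0.75 for BCAM high against differentiated, 0.48 for BCAM low against differentiated and 0.26 for BCAM high against BCAM low (limma on log2(TPM + 0.1)). With that scaling 43 genes were lower and 5 higher (Cfap20, Cfap300, Dnah8, Spag7 and Spag9) in BCAM high against differentiated. In BCAM low against differentiated 17 were lower and 5 higher (Cfap20dc, Cfap410, Dnah8, Rsph3b and Spag9). Of the first 5, Cfap20 at 0.63 and Spag7 at 0.50 lay below the median shift of all genes, 0.75.

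The change of each difference between the batches was tested directly. The BCAM high against BCAM low difference became more negative in batch 2 for 26 of the 63 genes and in the other direction for none, where 1.06% of all genes changed (129 genes; 0.172% in the other direction). Without BCAM high 6 or BCAM low 7 this count was 16. The BCAM low against differentiated difference rose in batch 2 for 18 genes (11.4% of all genes changed, 6.81% in that direction), a count that fell to 7 without BCAM low 6 or differentiated 7 and to 9 without differentiated 6. The BCAM high against differentiated difference became more negative for 8 genes (8.69% of all genes changed, 3.28% in that direction and 5.41% in the other), and for 4 without BCAM high 6 and 5 without differentiated 5 or 6.

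Within BCAM low, batch 2 was higher than batch 1 in 48 of the 63 genes and lower in none, where 11.1% of all genes differed (6.48% as higher and 4.66% as lower), with a median log2 fold change of 3.10 against -0.02 over all genes. In 48 genes all 3 libraries of batch 2 were above all 5 of batch 1, against 9.89% of all genes. Leaving out any 1 of the 24 libraries gave 41 to 50 genes. Within the differentiated cells batch 2 was higher in 21 genes and lower in none (20.1% of all genes differed, 9.98% as higher and 10.2% as lower; median 1.42), and this count was 13 without differentiated 5, 9 without differentiated 6 and 5 without differentiated 8. Within BCAM high 6 genes differed (8.04% of all genes, 4.93% as higher): Rsph9 and Spag8 were lower in batch 2, and Dnah8, Dnah12, Dnai1 and Spag9 were higher; without BCAM high 2 or 6 the count was 3. The call of Dnah12 was lost without BCAM high 2, 4, 5, 6 or 8 and that of Spag9 without BCAM high 1, 2, 3, 6 or 7. In the differentiated cells the calls of Hydin, Ccdc40, Cfap43, Cfap52 and Dnah3 were lost without differentiated 8.

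**Figure D2:**
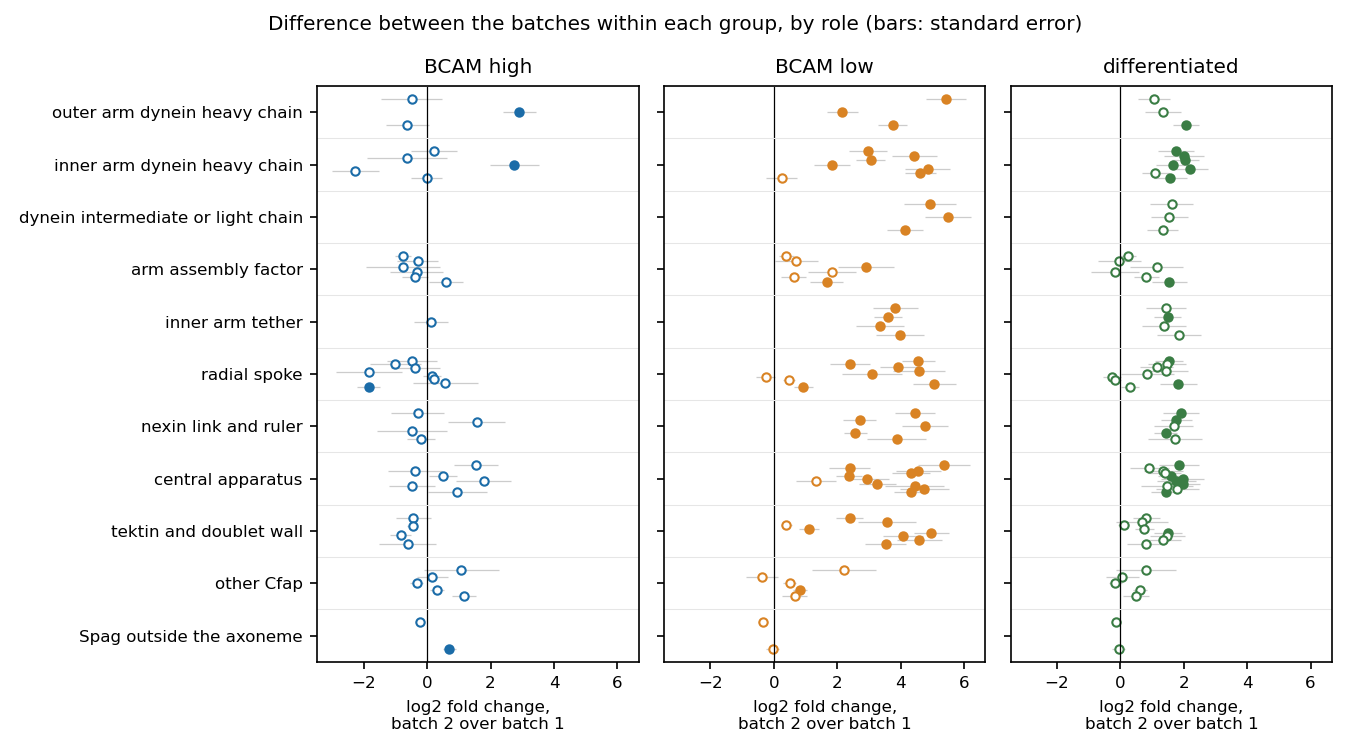
Log2 fold change of batch 2 over batch 1 (x axis) within each group (panels) for the tested genes, by role (rows); bars are standard errors. Filled points passed edgeR's adjusted p of 0.05, and genes with 3 or fewer counts in one of the batches, 19 of them in BCAM high, are not drawn. In BCAM low the points of all roles but the Spag genes outside the axoneme lie mostly to the right of 0; in the differentiated cells most points lie between 0 and 2.

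The outer arm heavy chains are the motors that set beat frequency. Dnah5, the chain present along the whole airway cilium, ranged from 0 to 3.23 CPM (median 0.72) in batch 1 of BCAM high and was 1.88, 0.354 and 0 CPM in batch 2. In BCAM low it ranged from 0 to 1.37 CPM (median 1.11) in batch 1 and was 36.6, 43.7 and 28.2 CPM in BCAM low 6, 7 and 8. In the differentiated cells it ranged from 12.4 to 37.4 CPM (median 19.4) in batch 1 and was 41.2, 26 and 71.2 CPM in batch 2. The 3 later BCAM low libraries thus stood above all other BCAM libraries and inside the range of the differentiated ones. The log2 fold change of batch 2 over batch 1 in BCAM low was 5.42 ± 0.62 (standard error; edgeR adjusted p = 1.72e-06), and that of BCAM high against differentiated was -5.01 ± 0.85 (edgeR adjusted p = 4.89e-05).

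Dnah9, the outer arm chain of the distal part of the cilium, was also low in BCAM high and in batch 1 of BCAM low. It was at most 2.94 CPM in those libraries, and 33.5, 18.4 and 18.2 CPM in batch 2 of BCAM low. Differentiated libraries held 3.17 to 13.2 CPM (median 12.6) in batch 1 and 40.7, 25.2 and 68.7 CPM in batch 2, without overlap between the batches. Batch 2 was higher by 3.75 ± 0.45 on the log2 scale in BCAM low (edgeR adjusted p = 9.27e-07) and by 2.07 ± 0.41 in the differentiated cells (edgeR adjusted p = 0.000459). Dnah11, the proximal partner chain, did not pass the filter. Its values were 11.5, 6.43 and 2.52 CPM in batch 2 of BCAM low, 0.314, 0 and 0 CPM in batch 2 of BCAM high, and 1.24 to 19.8 CPM over the differentiated libraries.

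Dnah8 went the other way. It encodes the outer arm chain best known from sperm, the counterpart of Dnah5, and was the 1 gene called higher in BCAM low than in the differentiated cells. Batch 1 held 1.44 to 2.48 CPM in BCAM high, 2.53 to 5.54 CPM in BCAM low and 0 to 3.69 CPM in the differentiated cells. Batch 2 held 13.5, 16.6 and 12.2 CPM in BCAM high, 10.6, 21.9 and 25.7 CPM in BCAM low, and 9.6, 2.13 and 6.58 CPM in the differentiated cells. All batch 2 libraries of both BCAM subsets were above all differentiated libraries. BCAM low exceeded differentiated by 1.22 ± 0.41 (log2; edgeR adjusted p = 0.0203), a call lost with length offsets (0.84) and with no term for batch (1.35). Batch 2 exceeded batch 1 by 2.91 ± 0.51 in BCAM high (edgeR adjusted p = 0.000474) and by 2.16 ± 0.48 in BCAM low (edgeR adjusted p = 0.00299). The coding transcript Dnah8-210 took 23.8% of the estimated counts of Dnah8 and a transcript annotated for nonsense-mediated decay, Dnah8-211, 17.7%, so the gene total is not a measure of coding message alone.

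The inner arm heavy chains shape the waveform of the beat. Of 7 tested, 6 were lower in BCAM high than in the differentiated cells and 6 were higher in batch 2 of BCAM low; Dnah7b was called in neither. Dnah6 was between 0 and 1.31 CPM in batch 1 of BCAM high, with a median of 0.275, and had 0 counts in all 3 libraries of batch 2. It was 0.505 to 1.77 CPM in batch 1 of BCAM low, and then 27.8, 22.3 and 29.8 CPM. Differentiated libraries held 10 to 20.2 CPM in batch 1 (median 18) and 37.8, 17.9 and 52.7 CPM in batch 2. In batch 2, 174 counts in BCAM low stood against 0 in BCAM high, at least 82.7-fold lower in BCAM high with a floor of 3 counts over the group. In BCAM low the rise of Dnah6 from batch 1 to batch 2 was 4.62 ± 0.49 (log2; edgeR adjusted p = 1.39e-07).

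Dnah3, also an inner arm chain, had 0 counts in batch 2 of BCAM high against 142 in BCAM low, at least 67.5-fold lower in BCAM high. It was 14.6, 29.6 and 20.2 CPM in BCAM low 6, 7 and 8 and 37.8, 34.6 and 79 CPM in batch 2 of the differentiated cells, where the groups did not overlap. Dnah12, another inner arm chain, differed between the BCAM subsets in batch 1 too: 0 to 0.979 CPM in BCAM high against 0.886 to 8.34 CPM in BCAM low, with BCAM high 3 inside the lower end of BCAM low. In batch 2 it was 3.14, 1.41 and 4.45 CPM in BCAM high, 36.2, 46.7 and 29.3 CPM in BCAM low and 86.4, 42.7 and 86.4 CPM in the differentiated cells. The log2 fold change of BCAM high was -3.41 ± 0.44 against BCAM low (edgeR adjusted p = 1.43e-05) and -4.91 ± 0.44 against differentiated (edgeR adjusted p = 8.34e-10). Almost all its counts, 99.4%, were on the long coding transcript Dnah12-201.

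Dnah10 and Dnah2 form the double-headed inner arm, and Dnah1 is one of the single-headed chains. Dnah10 was at most 3.55 CPM in BCAM high and batch 1 of BCAM low, 32.6, 26.6 and 19.7 CPM in batch 2 of BCAM low and 5.55 to 72 CPM in the differentiated cells; its batch difference in BCAM low was 4.43 ± 0.71 (log2; edgeR adjusted p = 0.000166). Dnah1 rose by 2.97 ± 0.60 in the same contrast (edgeR adjusted p = 0.00116), from 0.229 to 2.29 CPM in batch 1 to 9.26, 9.86 and 8.57 CPM in batch 2. Dnah2 had a batch difference of 1.83 ± 0.57 (log2; edgeR adjusted p = 0.0347), from 0.236 to 4.43 CPM in batch 1 to 6.62, 8.14 and 7.56 CPM in batch 2. This call of Dnah2 was lost without BCAM low 1, 2, 3, 4, 6, 7 or 8. In BCAM high it held 2.35 to 4.56 CPM in every batch 1 library and 0, 0.707 and 1.19 CPM in batch 2. The 3 copies Dnah7a, Dnah7b and Dnah7c share 54.2%, 38.9% and 61.6% of their 31-base words with each other, so the split of reads among them is uncertain. Dnah7b was 2.73 to 10.6 CPM in batch 1 of all groups and 2.06 to 18.1 CPM in batch 2.

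**Figure D3:**
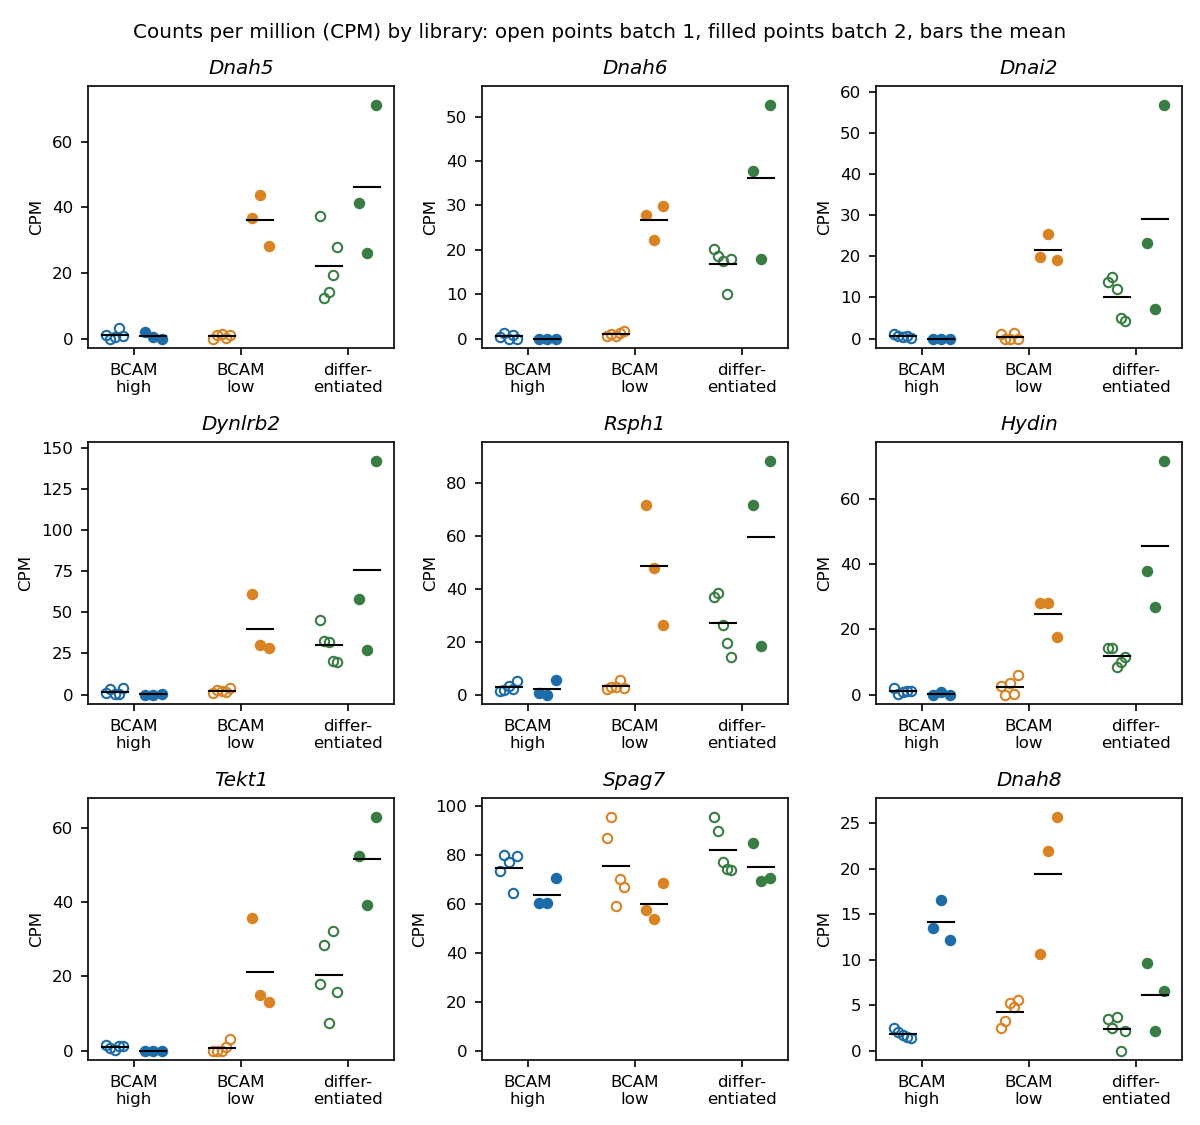
CPM (y axis, linear from 0) of 9 genes in each library, by group; open points are batch 1, filled points batch 2 and bars the mean of a batch. For Dnah5, Dnah6, Dnai2, Dynlrb2, Rsph1, Hydin and Tekt1 the 3 batch 2 libraries of BCAM low lie above the other BCAM libraries; Spag7 is level across groups and Dnah8 is lowest in the differentiated cells of batch 2 among the groups of that batch.

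The intermediate and light chains hold the heavy chains together and dock them. Dnai2, an outer arm intermediate chain, had 0 counts in 3 of the 5 batch 1 libraries of BCAM low and 1.27 CPM at most, then 19.8, 25.3 and 19.2 CPM in batch 2. BCAM high held 0.24 to 1.1 CPM in batch 1 and 0 counts in batch 2, where BCAM low had 142 counts, which puts BCAM high at least 67.5-fold lower. The differentiated cells held 4.37 to 14.9 CPM in batch 1 (median 12.1) and 23.2, 7.25 and 56.8 CPM in batch 2, so BCAM low 6 to 8 exceeded all 5 batch 1 differentiated libraries. The batch difference of Dnai2 in BCAM low was 5.49 ± 0.72 (log2; edgeR adjusted p = 6.41e-06).

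Dnai1, its partner, had 1 count in batch 1 of BCAM high and 29 in batch 2 (1.25, 4.6 and 3.56 CPM), a ratio of 59 with an exact 95% interval from 9.78 to 2410 that covers counting error only. BCAM low held at most 0.765 CPM in batch 1 and 7.5, 7.29 and 10.6 CPM in batch 2, a batch difference of 4.92 ± 0.82 (log2; edgeR adjusted p = 9.94e-05). Differentiated libraries ranged from 1.86 to 24.7 CPM. In BCAM high 58.2% of the estimated counts of Dnai1 were on the 500-base coding transcript Dnaic1-202 and 34.1% on the retained-intron Dnaic1-203. The long coding transcript Dnaic1-201 took 7.68% there, against 82.1% in batch 2 of BCAM low. The gene total of Dnai1 in BCAM high is therefore not a measure of the long coding message.

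Dynlrb2, a roadblock light chain that motile cilia and the dynein of intraflagellar transport both use, had the highest level per transcript length in the differentiated cells among the dynein chains of the 86 genes. Light chains that cytoplasmic dynein shares or owns, outside the set, were higher there, such as Dynll1 at a mean of 195 ± 70.7 TPM (SD, n = 8) and Dynlrb1 at 168 ± 38 TPM. Its level in TPM was 32.5 to 343 in the differentiated cells (mean 91.9 ± 103, SD, n = 8), 69 to 114 in batch 2 of BCAM low (87.2 ± 23.6, n = 3), 2.17 to 10.3 in batch 1 of BCAM low (5.6 ± 3.36, n = 5) and 0 to 10.4 in BCAM high (3.22 ± 4.24, n = 8). By mean TPM over the differentiated libraries Dynlrb2 ranked 2 of the 86 genes, between Cfap20 at 96.2 and Rsph3b at 72.8, neighbours whose ranges it overlaps. This rank differed by batch: 6 in batch 1 (51.2 TPM) and 1 in batch 2 (160 TPM), a mean raised by differentiated 8. In BCAM high Dynlrb2 ranked 18. In CPM it was 60.9, 30 and 28.2 in BCAM low 6, 7 and 8, and 1 count stood in batch 2 of BCAM high against 264 in BCAM low, a 376-fold difference with an exact 95% interval from 67 to 14900. Dnah5 by comparison had a mean of 1.38 ± 1.03 TPM (n = 8) in the differentiated cells.

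The arm assembly factors fold and preload the dyneins in the cytoplasm. None of the 6 tested was called between the BCAM subsets or between BCAM low and differentiated, 4 were lower in BCAM high than in differentiated, and 2 were higher in batch 2 of BCAM low. Dnaaf1 was one of these, at 0 to 5.26 CPM in batch 1 of BCAM low and 19.4, 10.3 and 10.1 CPM in batch 2 (log2 difference 2.92 ± 0.88; edgeR adjusted p = 0.0307), a call lost without BCAM low 1, 2, 4, 5, 6 or 7. Spag1, a co-chaperone of arm assembly, was the other, at 1.77 to 3.31 CPM and then 5.73, 5.57 and 11.6 CPM (1.66 ± 0.54; edgeR adjusted p = 0.0394), a call lost without BCAM low 1, 3, 4, 5, 6, 7 or 8. Spag1 was at 1.76 to 5.66 CPM in BCAM high, a range that overlaps all groups. The retained-intron transcripts Spag1-208, Spag1-207, Spag1-205 and Spag1-203 took 24.3%, 20.9%, 19.3% and 17.1% of its estimated counts. The gene total of Spag1 is therefore not a measure of coding message. Dnaaf3 did not pass the filter and was 7.94, 5.14 and 4.54 CPM in batch 2 of BCAM low, 0 to 2.29 CPM in batch 1, and 21 CPM in differentiated 8 against 2.11 to 6.34 CPM in the other 7 differentiated libraries.

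The tethers fix the inner arm motor to the doublet. Cfap43, needed for sperm flagella, was 1.22 to 7.35 CPM in BCAM high, and batch 1 libraries of BCAM low reached 6.82 CPM. Batch 2 of BCAM low held 56, 50.6 and 42.4 CPM and the differentiated cells 12.8 to 76.9 CPM. The batch difference in BCAM low was 3.60 ± 0.44 (log2; edgeR adjusted p = 2.81e-06). Cfap57 was nearly absent from BCAM high: 1 count there stood against 155 in the differentiated cells, a 286-fold difference (exact 95% interval 50.6 to 11400), and against 90 in BCAM low, a 93-fold difference (16.3 to 3710). All 4 tested tethers were higher in batch 2 of BCAM low.

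The radial spokes pass signals from the central apparatus to the arms. All 9 tested were lower in BCAM high than in the differentiated cells and 7 were higher in batch 2 of BCAM low. Rsph1, a spoke head protein, was 2.27 to 5.61 CPM in batch 1 of BCAM low and 71.9, 48 and 26.2 CPM in batch 2, against 14.2 to 38.4 CPM and 71.7, 18.3 and 88.5 CPM in the differentiated cells (batch difference in BCAM low 3.93 ± 0.58, log2; edgeR adjusted p = 8.29e-05). Rsph4a, also in the spoke head, rose from at most 2.88 CPM to 49.4, 27.9 and 15.6 CPM (5.06 ± 0.68; edgeR adjusted p = 1.27e-05). Within batch 2 both genes were highest in BCAM low 6 and lowest in BCAM low 8.

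Rsph9, another spoke head protein, was detected in every library. BCAM high held 10.3 to 17.3 CPM in batch 1 and 4.71, 3.18 and 2.96 CPM in batch 2, a log2 fold change of -1.84 ± 0.36 (edgeR adjusted p = 0.00145). BCAM low held 13.8 to 16.4 CPM in batch 1 and 44.5, 28.3 and 12.1 CPM in batch 2 (0.94 ± 0.29; edgeR adjusted p = 0.0317), where BCAM low 8 was below all batch 1 libraries. The call of Rsph9 was lost without BCAM low 2, 3, 4, 6 or 7. Differentiated libraries held 32.2 to 74.9 CPM. The BCAM high against BCAM low difference of Rsph9 thus changed between the batches by -2.78 ± 0.46 (edgeR adjusted p = 0.00145). Rsph3a and Rsph3b share 59.4% and 58.5% of their 31-base words and are uncertain as single genes. Rsph3b was 70.8 to 231 CPM across all libraries, and 76.6% of its estimated counts were on Rsph3b-203, a transcript annotated without a coding sequence.

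The nexin link is the dynein regulatory complex, and Ccdc39 with Ccdc40 forms the ruler that sets its spacing. All 5 tested were lower in BCAM high than in the differentiated cells and higher in batch 2 of BCAM low. Drc1 was at most 2.6 CPM in batch 1 of BCAM low and 39.3, 21.9 and 12.1 CPM in batch 2 (4.77 ± 0.71, log2; edgeR adjusted p = 4.41e-05), against 5.55 to 13.2 CPM and 25.4, 8.11 and 64.6 CPM in the differentiated cells. Ccdc39 rose from at most 2.78 CPM to 27.3, 26.1 and 18.2 CPM (4.45 ± 0.64; edgeR adjusted p = 1.48e-05). Ccdc40 was lower in BCAM high than in BCAM low in both batches: 0 to 0.826 CPM against 0.473 to 5.1 CPM in batch 1, with 1 BCAM high library inside the BCAM low range, and 0, 1.41 and 1.19 CPM against 19, 18 and 15.6 CPM in batch 2. The pooled difference was -3.73 ± 0.51 (log2; edgeR adjusted p = 2.06e-05).

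Drc3 kept a floor of 2.37 to 8.14 CPM in BCAM high, carried by other transcripts than in batch 2 of BCAM low. The coding transcripts Drc3-203 and Drc3-204 held 84 and 16 estimated counts in BCAM high and 71 and 21 in batch 1 of BCAM low. In batch 2 of BCAM low they held 2 and 209, and in batch 2 of the differentiated cells 37 and 327. A like split was seen in Cfap45, whose retained-intron transcript Cfap45-208 held 119 estimated counts against 64 for the coding Cfap45-201 in batch 1 of BCAM low, and 28 against 99 in batch 2. These transcript values are estimates from short reads and were not tested.

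The central apparatus is the pair of single microtubules and their projections. All 11 tested genes were lower in BCAM high than in the differentiated cells and 10 were higher in batch 2 of BCAM low; summed TPM of the 14 genes was 8.56 to 21.5 in batch 1 of BCAM low, 84.1 to 95 in batch 2, 7.23 to 18.3 in BCAM high and 29.2 to 182 in the differentiated cells. Hydin, a giant projection protein whose loss causes hydrocephalus in mice, was 0 to 5.98 CPM in batch 1 of BCAM low and 28.2, 27.9 and 17.7 CPM in batch 2 (3.27 ± 0.59, log2; edgeR adjusted p = 0.000459). BCAM high held 0.263 to 1.93 CPM and then 0, 0.707 and 0 CPM, and differentiated libraries 8.44 to 14.4 CPM and then 37.8, 26.9 and 71.6 CPM. The 3 batch 2 libraries of BCAM low exceeded all batch 1 differentiated libraries, and BCAM low 6 and 7 also exceeded differentiated 7.

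Spag6l and Spag17, which both belong to projections of the central pair, both rose in this contrast. Spag6l rose from 0.473 to 2.55 CPM to 33.5, 37.3 and 17.7 CPM in BCAM low (4.32 ± 0.54, log2; edgeR adjusted p = 2.57e-06); it shares 1.86% of its 31-base words with Spag6. Spag17 went from at most 0.765 CPM to 21.6, 8.57 and 4.03 CPM (4.75 ± 0.78; edgeR adjusted p = 8.29e-05), with BCAM low 6 far above the other 2. Cfap65 showed one of the larger differences between BCAM high and the differentiated cells, -5.99 ± 0.81 (log2; edgeR adjusted p = 3.02e-06), at 0 to 2.16 CPM against 22.7 to 161 CPM, and was 60, 60.4 and 46.4 CPM in batch 2 of BCAM low. Cfap46 was at most 0.443 CPM in batch 1 of BCAM low and 9.26, 10.3 and 9.08 CPM in batch 2, and over both batches BCAM low differed from differentiated by -2.66 ± 0.71 (log2; edgeR adjusted p = 0.00462).

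Tektins and doublet wall proteins line the inside of the doublets. Of 8 tested, 7 were lower in BCAM high than in differentiated and 7 were higher in batch 2 of BCAM low. Tekt1 had 0 counts in batch 1 libraries 1, 2 and 3 of BCAM low and 1.02 and 3.1 CPM in the other 2, then 35.7, 15 and 13.1 CPM. All 3 of these were below the 52.5, 39.2 and 63 CPM of batch 2 of the differentiated cells, and Tekt1 was one of the 2 genes still called lower in BCAM low in batch 2 alone. The pooled difference from differentiated was -2.64 ± 0.70 (log2; edgeR adjusted p = 0.0057). Tekt4 had 2 counts in BCAM high against 229 in the differentiated cells, a 211-fold difference (exact 95% interval 57.9 to 1760). Cfap52, at the inner junction of the doublet, rose by 4.96 ± 0.55 in BCAM low (edgeR adjusted p = 2.08e-07), from at most 2.04 CPM to 22.9, 26.1 and 13.1 CPM.

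Cfap126, known as Flattop, was at 3.82 to 7.58 CPM in batch 1 of BCAM low and 28.7, 28.3 and 29.3 CPM in batch 2 (2.40 ± 0.42, log2; edgeR adjusted p = 0.000221). BCAM high held 0.627 to 5.31 CPM. Of the estimated counts of Cfap126, 51.3% (62.8% in batch 2 of BCAM low) were on Cfap126-205, a transcript annotated for nonsense-mediated decay. Spag8 had 30 counts in batch 1 of BCAM high and 0 in batch 2, at least 4.92-fold lower, against 17.7 to 19.8 CPM in batch 2 of BCAM low; it is named here because of its values. Cfap20, a doublet protein also found outside motile cilia, was 46.9 to 131 CPM across all 24 libraries, and none of its edgeR differences between groups or batches over the 24 libraries passed the test. In single batches Cfap20 was called lower in BCAM low than in differentiated in batch 1 (-0.44) and in BCAM high than in differentiated in batch 2 (-0.63). Its fitted BCAM high against differentiated difference of -0.26 over both batches turned to 0.63 on the log2(TPM + 0.1) scale.

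Spag4, Spag5, Spag7 and Spag9 share the sperm antigen name but are not parts of the axoneme, and Spag4 and Spag5 did not pass the filter. Spag7, an R3H-domain protein, was 54 to 95.6 CPM in every library and was called in no edgeR comparison over the 24 libraries; its differences changed sign between scalings (-0.17 and 0.50 for BCAM high against differentiated with edgeR and with limma on log2(TPM + 0.1)). Spag9, a scaffold of JNK signalling, was 19.8 to 52 CPM, and 40.8, 52 and 36.5 CPM in batch 2 of BCAM high against 23.7 to 30 CPM in batch 1 (0.70 ± 0.20, log2; edgeR adjusted p = 0.0234). Spag5, the mitotic spindle protein astrin, was 0 to 9.28 CPM over all libraries.

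**Figure D4:**
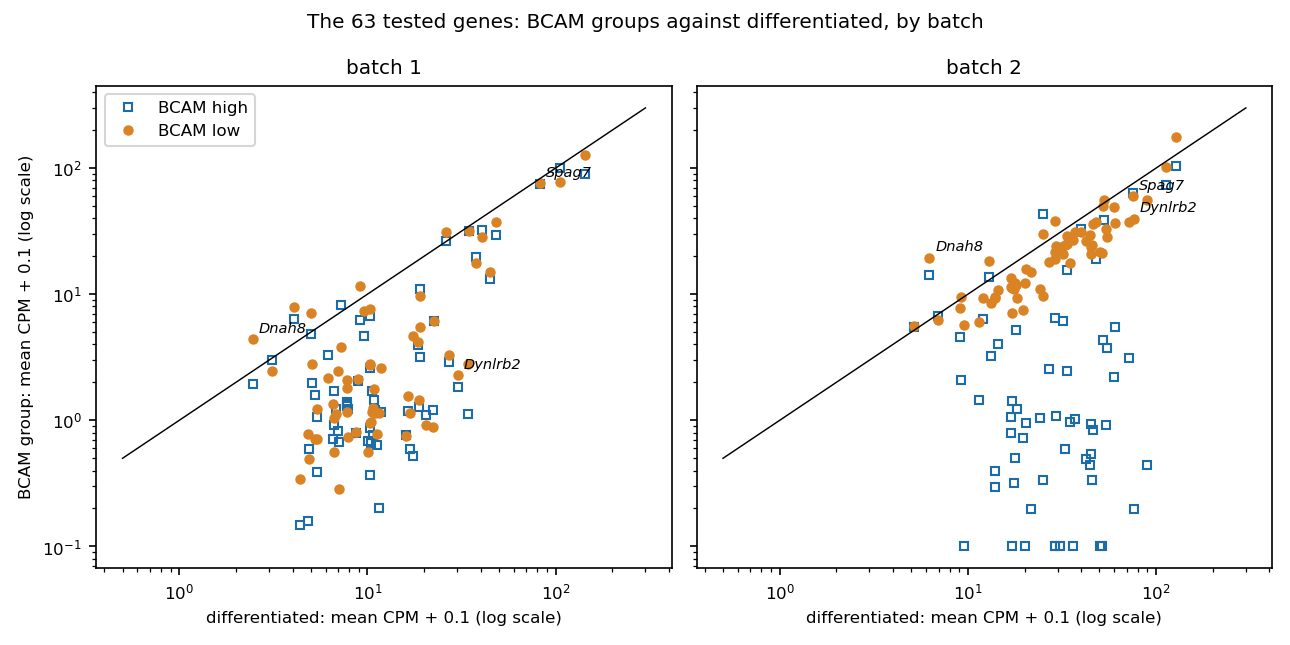
Mean CPM + 0.1 of each of the 63 tested genes in the BCAM groups (y axis) against the differentiated cells (x axis), both on log scales, in batch 1 (left) and batch 2 (right); the line marks equal values and names stand beside BCAM low points. In batch 1 both BCAM groups lie together, mostly below the line. In batch 2 BCAM low lies near the line and BCAM high far below it. The median of BCAM low there is 68% of the differentiated mean, which includes the high differentiated 8.

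The order of the genes by level in batch 2 of BCAM low was close to that in the differentiated cells. Across the 63 tested genes the mean levels of batch 2 of BCAM low correlated with batch 2 of the differentiated cells at Pearson's r 0.876 and Spearman's rho 0.884, as did the 2 differentiated batches with each other at 0.833 and 0.871. With batch 1 of BCAM low the values were 0.575 and 0.432. These correlations are across genes, which are not independent replicates, and genes share length and library composition. They also depend on the filter, since 31 of the 63 genes reached its cutoff in no BCAM high library. Likeness among the libraries where such genes are high is therefore partly built in. In batch 2 the level in BCAM low was above the differentiated mean, which includes the high differentiated 8, for 8 of the 63 genes. It was under 10% of that mean for none, and in BCAM high for 42. Against the batch 1 differentiated mean, batch 2 of BCAM low was above for 54.

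Genes of the same machinery outside the name rule were counted from lists. Of 26 tested further axoneme genes (such as Dnali1, an inner arm light chain, and the outer arm docking genes), 15 were higher in batch 2 of BCAM low (median log2 fold change 2.51), 22 were lower in BCAM high against differentiated (median -2.95) and 8 in BCAM high against BCAM low. Over all 12211 genes the shares called in these directions were 6.48%, 22% and 4.59%. Of 35 tested genes of intraflagellar transport and the BBSome, which primary cilia also need, the counts in the same order were 6, 12 and 1 (medians 0.53, -0.40 and -0.10), to be read against the same shares. Of 12 cytoplasmic dynein and shared light chain genes, 1 was higher in batch 2 of BCAM low and 1 was lower and 1 higher in BCAM high than in differentiated (medians -0.05 and 0.05).

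Most of the tested markers of multiciliated cells were also higher in batch 2 of BCAM low. Foxj1, their master regulator, was 0.473 to 4.43 CPM in batch 1 of BCAM low, 55.6, 61.7 and 41.9 CPM in batch 2, 0.826 to 5.63 CPM in BCAM high and 13.1 to 96.7 CPM in the differentiated cells. Of 13 tested ciliated markers, 10 were higher in batch 2 of BCAM low (median log2 fold change 4.28), where 6.48% of all genes were called higher. Cdhr3, a cadherin of ciliated cells, was at 0 to 0.473 CPM in batch 1 and 41.4 to 55.6 CPM in batch 2. Fam183b, another marker of the list, had 0 counts in all BCAM low libraries. Summed TPM of the 15 ciliated markers was 984 to 1317.5 in batch 1 of BCAM low and 1602.8, 1303.6 and 1411.7 in batch 2, which overlap. In BCAM high it was 848 to 1123.0 and then 558 to 623, and 3 markers (Tppp3, Tubb4b and Sec14l3) were called lower and 1 (Pifo) higher in batch 2. In the differentiated cells it was 1284.8 to 1639.9 in batch 1 and 940, 858 and 2646.8 in batch 2, so differentiated 6 and 7 were below batch 1. Of 9 tested regulators, 4 were higher in batch 2 of BCAM low. Foxj1 is on both the marker and the regulator list, and Ccdc113 is on both the marker list and that of further axoneme genes. These counts are therefore not separate. Rfx3, a regulator not called in that contrast, was 6.57 to 18.4 CPM in batch 1 and 9.86 to 11.1 CPM in batch 2 of BCAM low, inside the same range.

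Markers of other cell types were examined between the batches of BCAM low, where 6.48% of all genes were called higher and 4.66% lower in batch 2. Summed TPM of 12 basal markers was 4063.5 to 6683.8 in batch 1 of BCAM low and 3912.6 to 5986.0 in batch 2, overlapping, with 1 of 12 genes called lower. Summed TPM of 12 secretory markers was 30541 to 65732 and then 83590 to 105643, with 5 of 12 called higher. Scgb1a1, the secretory cell uteroglobin, was 236 to 1869.6 CPM and then 4776.5 to 8557.5 CPM. Summed immune markers were 422 to 1589.6 and 1045.5 to 1414.4 TPM. Of 6 tested thyroid markers 2, Tg and Iyd, were called higher in batch 2 of BCAM low (median log2 fold change 2.74), where the summed TPM was 71.1, 63.8 and 4.06 against at most 6.55 in batch 1. Both tested parathyroid markers, Pth and Chga, were called higher (median 7.88), with a summed TPM of 529 in BCAM low 7 and at most 3.18 in the other 7 BCAM low libraries. The part of any of these lists in the batch difference of the axoneme genes was not tested.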

How the data were processed

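Gene expression was measured in 24 libraries of sorted mouse tracheal epithelial cells, 8 in each of 3 subsets and 15 in batch 1 and 9 in batch 2. The deposited files, 1 per library, hold estimated counts and TPM per transcript, which the authors made with kallisto (version 46.1 as written) on GRCm39 and with Picard, per the submitters' processing notes. No further step is stated there. The values were summed per gene through GENCODE M21 (GRCm38) and RefSeq names. Of 117497 transcripts 116374 matched, and the 1123 others, 0.317% to 0.594% of the counts of a library, were left out.

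Summed estimated counts were rounded and tested with edgeR 4.0.16 in R 4.3.3: TMM scaling, filterByExpr, and the robust quasi-likelihood test on all 24 libraries with group and batch as terms, or with 1 mean per combination of group and batch. Benjamini-Hochberg adjustment ran over all 12211 genes tested, and a gene was called at an adjusted p under 0.05. A standard error is the size of the log2 fold change over the root of its F statistic. A gene with 3 or fewer counts in a group got no fitted fold: with 1 to 3 counts a ratio with an exact 95% interval is given, and with 0 a bound from a floor of 3 counts over the group. Such intervals and bounds reflect counting error alone. The test was checked on simulated counts.

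Alternatives were DESeq2 1.42.0 (size factors, Wald test), no filter, transcript length offsets, limma 3.58.1 on log2(TPM + 0.1) and log2(TPM + 1), a replicate block, no batch term, 2 groups or 1 batch alone, and each library left out.

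Genes named in the text were a fixed choice from each structural role, every gene called higher in a BCAM subset than in the differentiated cells, and the 3 with the largest change among those called in each comparison. Dnah3, Cfap57, Tekt4, Drc3, Cfap45, Cfap300, Cfap410, Cfap20dc and Spag8, where outside that rule, were named after their values were seen. The rule, the roles and the lists (further axoneme genes, intraflagellar transport and BBSome, cytoplasmic dynein, regulators, and markers of ciliated, basal, secretory, thyroid, parathyroid, tuft, ionocyte, immune and stromal or endothelial cells and mitosis) were chosen with earlier results of these data known. In the order BCAM high, BCAM low and differentiated, summed TPM ranged over 0.255 to 27.3, 0.289 to 529 and 7.7 to 20718 for parathyroid, 0.336 to 12.8, 2.73 to 39.6 and 2.42 to 28 for tuft, 90.3 to 257, 45 to 153 and 20.9 to 107 for ionocyte, 147 to 442, 47.7 to 269 and 4.93 to 77.5 for stromal or endothelial, and 14.7 to 91, 5.5 to 44.7 and 6.14 to 18.5 for mitosis markers.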

Additional observations from a re-analysis of the deposited data

Results flagged for a closer look

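In a group of 8 libraries a value was marked when the highest or lowest library stood apart by more than Dixon's 95% critical value as a share of the group's range. Of 108 groups of 8 examined, 18 were marked, where chance marks about 1 in 20, and in 11 of the 18 the library was differentiated 8 at the top. Its gap as a share of the range was 0.611 for Dnai1, 0.642 for Dnai2, 0.685 for Dynlrb2, 0.776 for Dnaaf3, 0.664 for Drc1, 0.542 for Ccdc40, 0.534 for Hydin, 0.600 for Cfap126, 0.562 for Dnah3 and 0.612 for Cfap65. For the summed TPM of all 86 genes it was 0.828, at 2206.4 TPM in differentiated 8 against 633 to 904 TPM in the other 7. Among the 3 batch 2 differentiated libraries, number 8 also held the highest summed TPM of ciliated markers, 2646.8 against 940 and 858, and of secretory, immune and basal markers.

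The other marked values were single libraries at the top of their group: BCAM high 4 for Dnah9 (0.555), BCAM high 3 for Cfap46 (0.550), BCAM low 6 for Spag17 (0.603) and Tekt1 (0.580), BCAM low 8 for Spag1 (0.597), BCAM low 3 for Spag5 (0.588) and differentiated 6 for Cfap20 (0.543).

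The change of the 3 group differences between the batches was flagged too. For BCAM high against BCAM low edgeR called 26 of the 63 genes (41.3%, against 1.06% of all genes). For BCAM low against differentiated it called 18 (28.6%, against 11.4%). For BCAM high against differentiated it called 8 (12.7%, against 8.69%), which is near the share of all genes called in either direction. All 8 became more negative in batch 2, where 3.28% of all genes were called in that direction. The count fell to 4 without BCAM high 6.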

How the results depend on the processing

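The cause of the changes in the counts of called genes was not tested, and fewer libraries enter the fits of 2 groups or 1 batch. BCAM high against BCAM low (19 called) gave 12 with no filter, 11 and 12 with limma on log2(TPM + 0.1) and log2(TPM + 1), 5 of 25 tested in a fit of the 2 groups only, 3 in batch 1 alone and 46 in batch 2 alone. BCAM low against differentiated (36) gave 22 with length offsets, 22 and 18 with limma, 4 with no batch term and 3 in batch 2 alone. The change of BCAM high against differentiated (8) gave 16 with the DESeq2 Wald test and 18 with no filter, and the batch difference within BCAM high (6) gave 11 with DESeq2.

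Leaving out 1 library at a time gave 11 to 23 genes for BCAM high against BCAM low, 52 to 56 against differentiated and 21 to 40 for BCAM low against differentiated. The changes between batches ranged over 16 to 30, 4 to 12 and 7 to 26 in the same order, and the batch differences over 3 to 8 within BCAM high, 41 to 50 within BCAM low and 5 to 28 within the differentiated cells. For BCAM high against BCAM low the log2 fold changes of genes that turned sign ranged from -0.04 to 0.13 for Cfap20, -0.29 to 0.07 for Spag1, -0.02 to 0.08 for Spag7 and -0.04 to 0.16 for Spag9.

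A replicate block gave 12 genes for BCAM high against BCAM low (19 without it), 53 for BCAM high against differentiated (53) and 26 for BCAM low against differentiated (36). Correlations of same-numbered libraries were all positive, 0.0351 to 0.193, but over 0.1 in only 9 of 24 pairs, and the labels name no shared animal or day, so the numbers were not treated as pairs. In 17 of 24 cases, not in every one, the best match was the own number, a hint from the data and not from the design.

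Signs turned for some genes. Of these only Cfap52 was called over both batches in the comparison concerned (-2.73, BCAM high against BCAM low). For BCAM high against BCAM low in batch 1 alone the log2 fold changes were 0.42 for Dnah5, 0.63 for Dnah2, 0.38 for Dnai2, 0.18 for Ccdc39, 0.25 for Tekt1, 0.30 for Spag1, -0.01 for Spag7, -0.22 for Spag9, 1.43 for Cfap46 and 0.10 for Cfap52, and in batch 2 alone -0.49 for Cfap20. Dnah2 was 0.29 with length offsets and 0.23 and 0.22 with limma, and Dnai1 0.03 with limma on log2(TPM + 1). For BCAM high against differentiated limma gave 0.63 and 0.62 for Cfap20 (called), 0.48 and 0.27 for Spag1 and 0.50 and 0.50 for Spag7 (called). For BCAM low against differentiated it gave 0.04 and 0.04 for Cfap20, 0.73 and 0.48 for Spag1 (0.37 with length offsets) and 0.19 and 0.19 for Spag7.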
